A study of Mus musculus with 30 samples.

Results

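The 32160 regions bound by p300 in Tdg fl/fl mouse embryonic stem (ES) cells were set against the regions enriched for 5-formylcytosine (5fC) in the same cells. The members were all p300 regions that the authors deposited for these cells, which lie on chromosomes 1 to 19 and X, together with 57016 of the 57018 5fC regions, the other 2 being on chromosome Y. They are 32160 of the 75505 p300 regions in the ES cell lists of both genotypes, and they rest on 5 of the 30 libraries of the series, 3 of p300 chromatin immunoprecipitation and 2 of 5fC-enriched DNA. The cells are of the strain C57BL/6-ICR and carry floxed, undeleted alleles of Tdg, and the labels name no treatment. The labels also do not say whether the libraries came from separate cultures or how many ES cell clones were used. For a parallel, 43345 p300 regions and the 5fC regions of Tdg -/- ES cells of the same strain were measured in the same way, and the 5-hydroxymethylcytosine (5hmC) regions of the fl/fl cells were read at the same p300 regions.

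TET enzymes oxidise 5-methylcytosine to 5hmC, then to 5fC and 5-carboxylcytosine, and thymine DNA glycosylase (TDG) cuts out the last 2 forms so that base excision repair can put back an unmodified cytosine. A 5fC region in cells with working Tdg therefore marks DNA where oxidation has gone past 5hmC and the product was still present when the DNA was taken. p300 is a histone acetyltransferase and coactivator that transcription factors bring to enhancers and to many active promoters. In ES cells many enhancers have low methylation at the factor-bound core and more methylated DNA beside it.

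Each mark has 1 list of regions pooled over its libraries, so no replicate check and no p-value can be given. Intervals are Wilson 95% intervals, which cover counting error over regions only, and neighbouring regions are not independent. The depth behind the lists is unknown. The p300 regions had a median width of 833 bp and the 5fC regions one of 543 bp. The FPKM table of the fl/fl cells, with 1 pooled value for each gene, matched the label of the cells. Pou5f1 stood at 630.5 FPKM, Nanog at 473 and Sox2 at 196.4, and the 8 ES cell markers with a value all exceeded 1 FPKM. Markers of other cell types were low, with fibroblast markers summing to 2.88 FPKM, endoderm markers to 1.56, mesoderm markers to 0.698, trophectoderm markers to 2.10 and neuroectoderm markers to 9.86, of which Nes gave 6.09. RNA of the enzymes of the pathway was found, with Tet1 at 66.6 FPKM, Tet2 at 46.9, Tdg at 22.1 and Tet3 at only 1.18. Protein and activity were not measured here. Ep300, which encodes p300, stood at 25.9 FPKM and Crebbp, which encodes its paralog CBP, at 7.27.

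A minority of p300 regions had 5fC at the centre, and 53.7% had none within 5 kb. The centre of 2631 p300 regions lay inside a 5fC region (8.18%, 7.89 to 8.49). Any shared base was found for 4148 (12.9%), and a 5fC region within 5 kb of the centre for 14878 (46.3%). The share was 10.7% within 250 bp, 13.3% within 500 bp, 18.95% within 1 kb, 28.3% within 2 kb and 61.3% within 10 kb. These counts are nested, so they can only rise with distance, and the shares to be met by chance were not computed. The median distance from a p300 centre to the nearest 5fC base was 5.94 kb, and the middle of the distribution reached from 1.62 to 20.7 kb (quartiles). At the far end, a 5fC region stood within 100 kb of 90.9% of p300 regions. For scale, fl/fl 5fC regions covered 1.34% of the 2577 Mb between 3 Mb and the last region of each chromosome, and the share of p300 centres in 5fC was 6.09 times this value.

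Around the p300 centre, 5fC had a narrow peak. Of the bases within 250 bp of the centre, 7.69% lay in 5fC, and from 250 to 500 bp away 5.32% did. Between 500 and 750 bp, just past the edge of a region of median width, the share was 4.40%, the lowest of the 20 bins of 250 bp out to 5 kb by a small margin. From there to 5 kb it stayed between 4.41% and 4.79%. The mean 4 to 5 kb away, taken here as the flank, was 4.56%, which gives a ratio of centre to flank of 1.69. The flank was itself high against the genome, at 3.39 times the share of the whole span. Further out, the share was 4.37% at 9 to 10 kb, 3.76% at 49 to 50 kb and 3.43% at 99 to 100 kb, so the raised level around p300 extended far beyond the regions themselves. The peak was symmetric, with 7.73% on the side of lower and 7.66% on the side of higher coordinates.

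**Figure D1:**
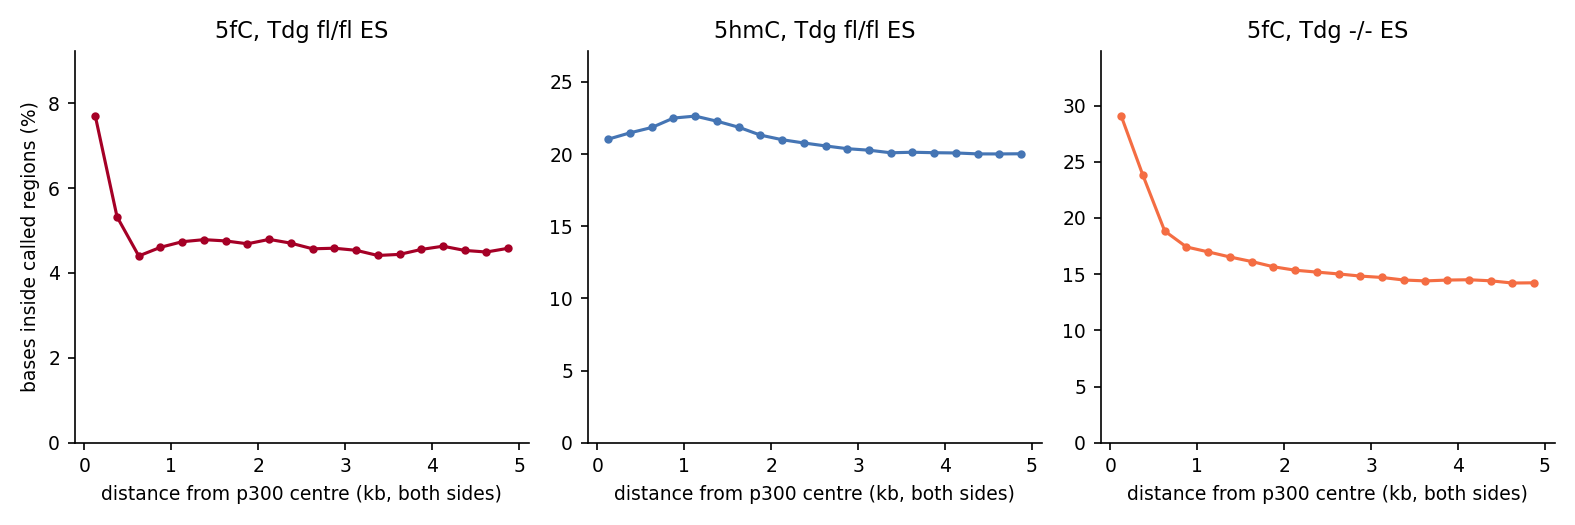
Share of bases inside called regions (y axis, %) against distance from the centre of the 32160 fl/fl p300 regions (x axis, kb, both sides pooled, bins of 250 bp), with 1 panel each for fl/fl 5fC, fl/fl 5hmC and Tdg -/- 5fC on separate y scales. 5fC of fl/fl cells is highest in the first bin (7.69%) and flat beyond 500 bp, while 5hmC of the same cells is highest at 1 to 1.25 kb (22.6%).

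Where a 5fC region touched a p300 region, it was mostly the only one. A single 5fC region lay on 3919 of the 4148 p300 regions with a shared base, 2 lay on 221, and 3 or more on 8. Over the 4386 overlapping pairs, the median shared length was 471 bp. The 5fC region was wholly inside the p300 region in 1429 pairs (32.6%), the p300 region wholly inside the 5fC region in 267 (6.09%), and the pair overlapped across 1 edge in 2690 (61.3%). The middle of the 5fC region lay closer to the p300 centre than to its edge in 49.6% of pairs, in the outer part of the p300 region in 26.2%, and beyond the edge in 24.1%. The 5fC regions that held a p300 centre were wider than those away from p300, with a median of 632 against 539 bp, and had a higher score, with a median of 111 against 92.9. A wider 5fC region has more bases on which a centre can fall. The 1718 5fC regions that touched p300 but held no centre had a median width of 560 bp and a median score of 88.55, below that of regions away from p300. The score is the authors' own value for each region, a p-value on a scale of minus 10 log10, and it served here only to rank and filter regions of the same list. From the side of 5fC, 5.84% of the 57016 regions had their centre in a p300 region. This share was 5.04% among the 14254 5fC regions with the lowest scores and 6.92% (6.52 to 7.35) among the 14254 with the highest.

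The 5fC share at the p300 centre was highest for p300 regions with low scores. For those with the highest scores it was below the flank over all regions, but not among isolated ones. Ranked by score into 4 classes of 8040, the p300 centre lay in 5fC at 11.9% (11.2 to 12.6) in the lowest class, 9.89% in the next, 6.78% in the third and 4.20% (3.79 to 4.66) in the highest, against 8.18% over all regions. The flank did not follow this order, with 4.49%, 4.42%, 4.42% and 4.91% of bases. The ratio of centre to flank was thus 2.45, 2.11, 1.45 and 0.830, so that the highest class had less 5fC at the centre than 4 to 5 kb away. It still had a small local peak, with 4.07% of bases within 250 bp against 3.28% at 250 to 500 bp and 3.29% at 500 to 750 bp. On the 19 autosomes the ratio was above 1 on all 19 in the lowest class and below 1 on 18 in the highest. The share of centres in 5fC was lower in the highest than in the lowest score class on each of the 19, with differences from -4.28 percentage points on chromosome 7 to -12.7 on chromosome 16. The lowest score in the p300 list was 50 and the median score of the lowest class 58.9, and the part of such weak calls in the order was not tested.

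**Figure D2:**
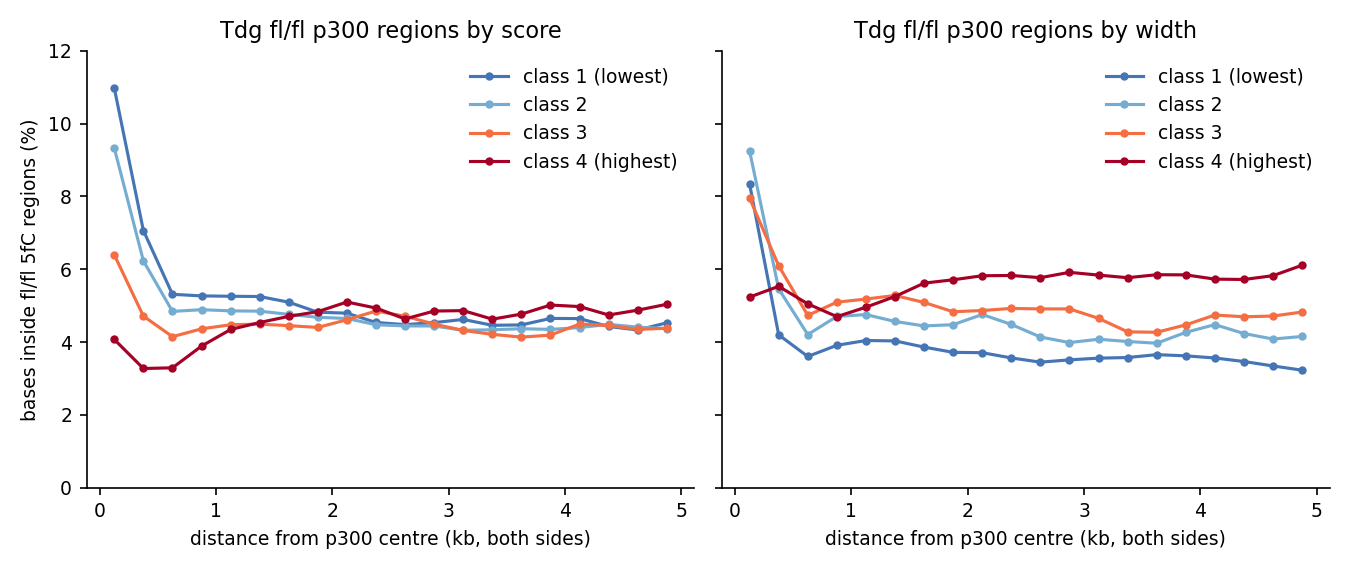
Share of bases inside fl/fl 5fC regions (y axis, %) against distance from the p300 centre (x axis, kb, both sides pooled), for 4 classes of 8040 fl/fl p300 regions ranked by score (left) and by width (right). In the first bin the lowest score class is at 10.97% and the highest at 4.07%, while 4 to 5 kb away the score classes lie between 4.42% and 4.91% and the width classes between 3.40% and 5.85%.

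A finer ranking placed the lowest central share at the very top of the list. In 10 score classes of 3216 regions, 11.3% of the bases within 250 bp of the centre lay in 5fC in the lowest class and 2.60% in the highest. The order was not strict, with 7.78% in the sixth class, 5.31% in the seventh and 5.73% in the eighth. In the highest class, with scores from 409 up to 3224, only 86 centres lay in 5fC (2.67%, 2.17 to 3.29), and the flank held 5.15%. Seen from the edges of the regions, the highest of the 4 score classes had 3.84% of its own bases in 5fC, 3.09% in the first 250 bp outside, 3.97% in the next 250 bp and 5.06% at 1.75 to 2 kb outside. The lowest class had 10.3% of its own bases in 5fC and 5.70% in the first 250 bp outside. Taken the other way, p300 regions with their centre in 5fC had a median score of 82.3, and those with it elsewhere one of 109. The median distance to 5fC differed less, at 5.22 kb in the lowest and 6.13 kb in the highest score class.

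**Figure D3:**
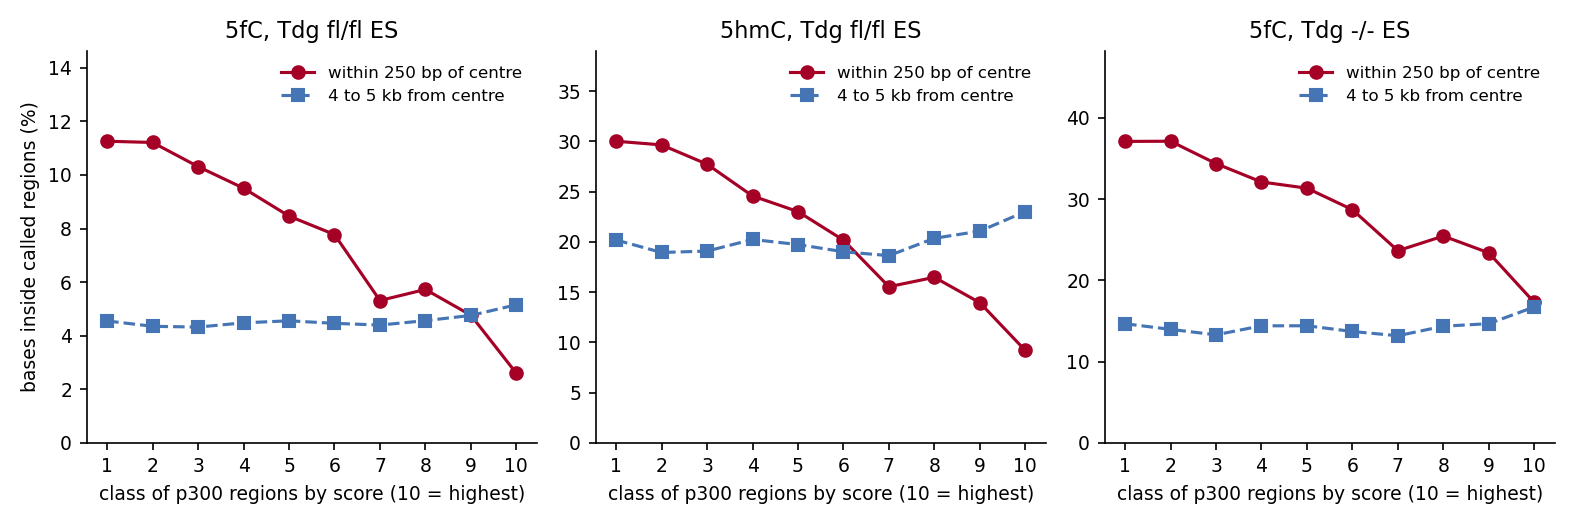
Share of bases inside called regions (y axis, %) within 250 bp of the p300 centre (circles) and 4 to 5 kb from it (squares) for 10 classes of 3216 fl/fl p300 regions ranked by score (x axis), with panels for fl/fl 5fC, fl/fl 5hmC and Tdg -/- 5fC. The central share is lower in the highest class than in the lowest for each mark (11.3% and 2.60% for fl/fl 5fC, 30.0% and 9.19% for 5hmC, 37.1% and 17.3% for Tdg -/- 5fC). The flank varies less, and for each mark it is highest in the highest class, at 5.15%, 23.0% and 16.7%.

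Wide p300 regions also had less 5fC at the centre, but more around them. In 4 classes of 8040 by width, the centre lay in 5fC at 9.33% of the narrowest (269 to 688 bp), 10.1% of the next, 8.27% of the third and 5.01% (4.56 to 5.51) of the widest (1078 to 6949 bp). The flank went the other way, from 3.40% by way of 4.24% and 4.75% to 5.85%. The ratio of centre to flank was 2.45 in the narrowest and 0.896 in the widest class. Among isolated regions it was 3.48 and 1.12. The widest class had a lower share at the centre than the narrowest on each of the 19 autosomes, with differences from -0.399 points on chromosome 15 to -7.37 on chromosome 8. The measure decides the direction here. Any shared base was found for 14.1% of the widest and 11.2% of the narrowest regions, and a longer region has more bases to share. Width and score went together, with a median score of 174 in the widest and 68.1 in the narrowest class. Within the 4 score classes, the widest minus the narrowest regions gave -1.33 points on average, against -4.32 over all regions. Within the 4 width classes, the highest minus the lowest score class gave -7.54 points, close to the -7.65 over all regions. The highest share stood among the 1779 regions of the second width class with the lowest scores, at 15.1% (13.5 to 16.9), and the lowest among the 3696 widest regions with the highest scores, at 3.41% (2.87 to 4.04).

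Clustered p300 regions differed from isolated ones more in the flank than at the centre. Regions were joined into clusters over gaps of at most 12500 bp, a distance often used to stitch enhancers, which left 11882 isolated regions. Their centre lay in 5fC at 7.15% (6.70 to 7.63), against 9.11% (8.63 to 9.60) of the 13530 regions in clusters of 3 or more. By cluster size the share at the centre was 8.14% in clusters of 2, 8.73% in those of 3 to 4, 9.39% in those of 5 to 9 and 9.81% in those of 10 or more. The flank was at 2.80% for isolated regions and at 4.16%, 5.59%, 6.94% and 7.28% for these cluster sizes. The ratio of centre to flank was 2.40 for isolated regions and 1.26 in the largest clusters. The difference of 1.95 points between clustered and isolated regions had this sign on 16 of the 19 autosomes, and chromosomes 3, 7 and 19 had the opposite one. Within classes of width it was 2.62 points. The flank of a clustered region can hold other p300 regions, and with such bases left out the flank over all regions was 4.41% and the ratio 1.75. It rests on the gap chosen: with a gap of 5 kb it was -0.267 points, and with 25 kb 2.72 points. With the higher-scoring p300 regions alone, and clusters rebuilt among them, it was 0.646 points. The median distance to 5fC was 11.2 kb for isolated regions and 4.06 kb for those in clusters of 3 or more.

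**Figure D4:**
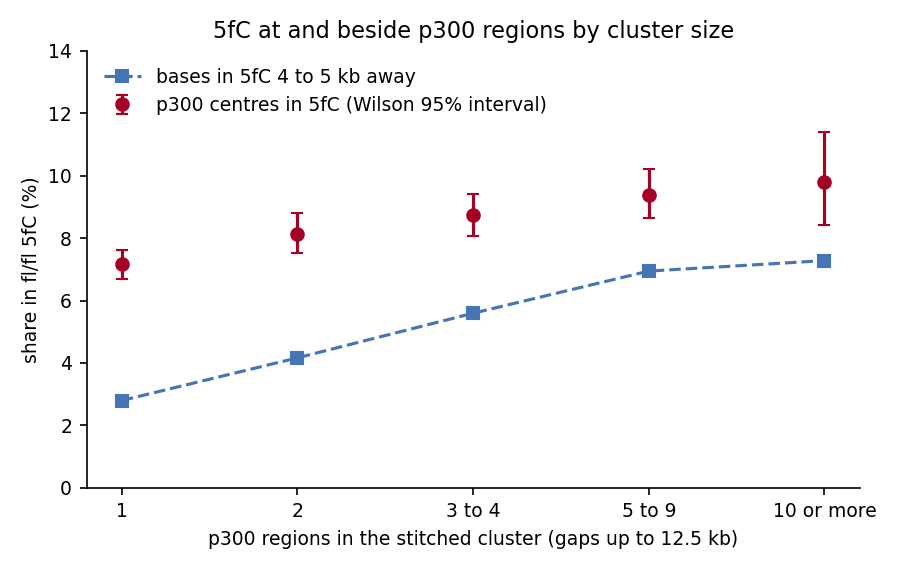
Share of p300 centres in fl/fl 5fC (circles, Wilson 95% intervals for counting error) and share of bases in 5fC at 4 to 5 kb (squares) (y axis, %) by the number of p300 regions in the stitched cluster (x axis). The flank goes from 2.80% to 7.28%, and the centre from 7.15% to 9.81%.

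Inside clusters, 5fC lay on p300 regions and between them. The bases of p300 regions were in 5fC at 6.87% in clusters of 2, 7.16% in those of 3 to 4, 7.42% in those of 5 to 9 and 6.93% in those of 10 or more. The bases between the p300 regions were in 5fC at 4.18%, 5.69%, 6.83% and 8.11%, so that in the 126 largest clusters the spaces held more 5fC than the p300 regions taken whole. Within 250 bp of the p300 centres of these clusters the share was 9.17%, above that of the spaces. Of the 3374 clusters of 2, both centres lay in 5fC in 48, 1 centre in 453 and neither in 2873. Of the 126 largest clusters, 77 had a p300 centre in 5fC (61.1%) and 118 spanned a 5fC region (93.7%). Among clusters of 2 these shares were 14.8% and 34.97%. A cluster with more centres and a longer span has more places to meet 5fC, and the shares to be met by number alone were not computed. The median span was 49.7 kb in the largest clusters and 5.41 kb in clusters of 2. Counted per centre, the share in 5fC was 9.81% and 8.14%. The cluster with most p300 regions held 21 over 94.7 kb, from 44753078 to 44847754 on chromosome 13 of the mm9 genome, and 2 of its centres lay in 5fC. Next came 2 clusters of 19: at 30039157 to 30094172 on chromosome 16, 1 centre lay in 5fC, with 8 5fC regions in the span. At 114411648 to 114478837 on chromosome 9, no centre lay in 5fC, though the span held 9 5fC regions.

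Most p300 centres in 5fC also lay in 5hmC, as did most 5fC bases of the whole list. Of the 2631 p300 centres in 5fC, 2305 also lay in a fl/fl 5hmC region (87.6%), whereas 14.8% of the other p300 centres did. Over the whole genome, 90.6% of the bases in fl/fl 5fC regions lay in 5hmC. Among the 6677 p300 regions with the centre in 5hmC, 34.5% (33.4 to 35.7) had it in 5fC, and among the 25483 others 1.28% (1.148 to 1.42). For p300 centres outside 5hmC, 5fC covered 1.24% of bases within 250 bp and 4.003% in the flank, a contrast in which the centre, but not the flank, was picked for lack of 5hmC. 5hmC itself had no central peak over all p300 regions, with 21.0% of bases within 250 bp, a maximum of 22.6% at 1 to 1.25 kb and 20.03% in the flank. This level profile joined unlike score classes. Within 250 bp of the centre, 5hmC covered 29.3% of bases in the lowest score class and 24.7% in the next, above their flanks of 19.6% and 19.7%. It covered 17.5% in the third and 12.6% in the highest, below their flanks of 19.1% and 21.8%. Its order over p300 scores was thus that of 5fC. p300 centres in 5hmC numbered 2353 in the lowest and 979 in the highest score class.

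Counted per base of 5hmC, the central peak of 5fC remained, and the score classes differed less in proportion than over all bases. Of the 5hmC bases within 250 bp of a p300 centre, 32.2% were also in 5fC, against 22.4% at 250 to 500 bp, 18.3% at 500 to 750 bp and about the level of the whole list (18.7%) or somewhat above it further out, with 20.98% in the last bin before 5 kb. The ratio of centre to flank was 1.54 on this scale. By score class, the share of 5hmC bases in 5fC within 250 bp was 33.9%, 33.5%, 31.6% and 26.7% from the lowest to the highest. The central peak of the highest class was larger on this scale, with 19.5% at 250 to 500 bp, 16.7% at 500 to 750 bp and 21.4% at 4.75 to 5 kb. Among p300 regions with the centre in 5hmC, the centre lay in 5fC at 36.6% (34.7 to 38.6) in the lowest and 28.6% (25.9 to 31.5) in the highest score class, a difference of -7.99 points. Among those with the centre outside 5hmC it did at 1.62% (1.32 to 1.98) in the lowest and 0.821% (0.636 to 1.06) in the highest class, a difference of -0.796 points that is larger in proportion.

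The chromosomes differed in level, and all 19 autosomes had the central peak. The share of p300 centres in 5fC ran from 6.01% on chromosome 18 to 10.9% on chromosome 5, with a median of 8.19%. The flank ran from 2.88% on chromosome 13 to 6.75% on chromosome 17, and the ratio of centre to flank from 1.33 on chromosome 18 to 2.09 on chromosome 13. Chromosome 11 had the most p300 regions, 2728, and was the only autosome with fewer 5fC regions, 2582, than p300 regions. Of its p300 centres 38.0% had 5fC within 5 kb, against a median of 46.1% over the autosomes. Chromosome X stood apart. None of its 490 p300 centres lay in 5fC, which allows a share of up to 0.612% (3 counts of the total; the Wilson upper limit is 0.778%), and its flank was at 0.384%. The chromosome had only 104 5fC regions, covering 0.0288% of its span against 0.885% to 2.13% on the autosomes, and 431 5hmC regions. Only 0.204% of its p300 centres lay in 5hmC. Without chromosome X, 8.31% of centres lay in 5fC and the ratio of centre to flank was 1.69.

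**Figure D5:**
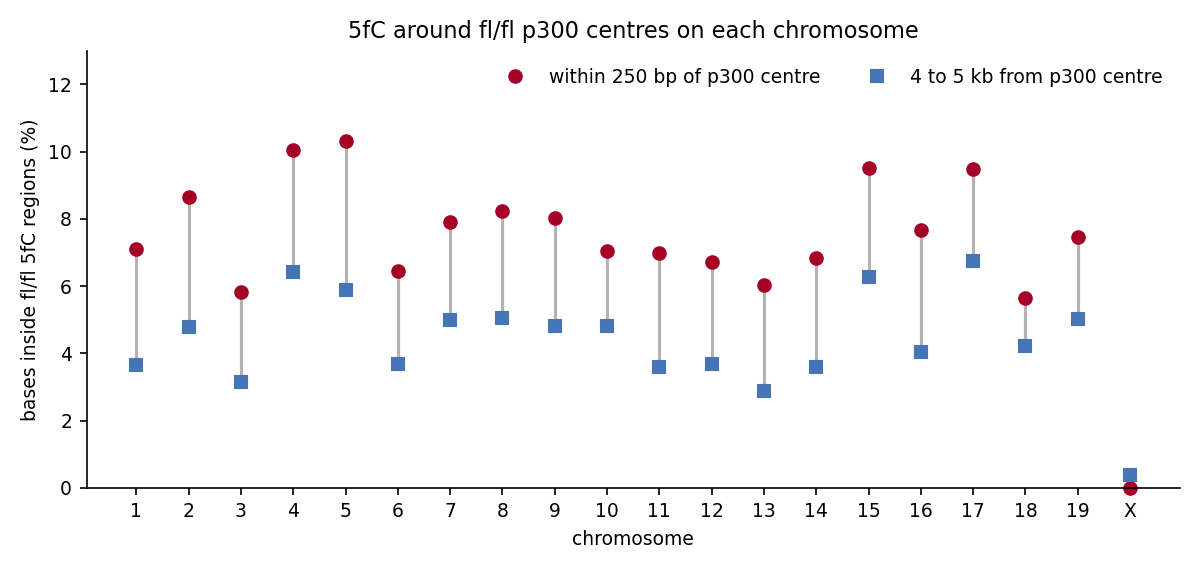
Share of bases inside fl/fl 5fC regions (y axis, %) within 250 bp of p300 centres (circles) and 4 to 5 kb from them (squares) on each chromosome (x axis), with a line joining both values. The circle is above the square on all 19 autosomes, and chromosome X is at 0% and 0.384%.

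Single regions show both kinds of p300 site, with positions in mm9 as deposited. No list of artefact-prone loci was applied to them. The p300 region with the highest score among those with the centre in 5fC (score 2045) lay at 138350003 to 138351005 on chromosome 4, with the whole of a 581 bp 5fC region (score 116) inside it. The next lay at 5372932 to 5374425 on chromosome 6 (score 1808), at 129071108 to 129074382 on chromosome 2 (score 1525) and at 140324230 to 140325725 on chromosome 4 (score 1328). In each, the 5fC region of 617, 707 and 718 bp was wholly inside the p300 region. All 4 centres also lay in fl/fl 5hmC and in Tdg -/- 5fC, as did 87.6% and 96.4% of all 2631 centres in 5fC. Of the p300 regions with no 5fC within 5 kb, the highest scores reached 3180 at 140305814 to 140308260 on chromosome 7, 3169 at 107723393 to 107725049 on chromosome 10, 3159 at 44559853 to 44561016 on chromosome 11 and 3153 at 141125496 to 141126651 on chromosome 4. Their nearest 5fC regions were 5.76, 5.54, 5.48 and 6.06 kb away. All 4 stood in clusters of 5 or more, and none of their centres lay in fl/fl 5hmC or Tdg -/- 5fC. Over all 32160 p300 regions, 5196 stood in clusters of 5 to 9 and 1539 in clusters of 10 or more. Of the 17282 regions with no 5fC within 5 kb, only 9.04% had the centre in 5hmC, so its absence from 4 regions is not particular to them. The widest p300 regions, of 6949 bp at 5841121 to 5848070 on chromosome 19 and 6513 bp at 3188350 to 3194863 on chromosome 11, shared no base with 5fC.

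The 3 5fC regions of highest score that touched p300 lay on p300 regions with scores of 74.8 to 132, where the median of the p300 list was 106. The highest 5fC score on p300, 1657, belonged to a 3209 bp 5fC region at 109979145 to 109982354 on chromosome 5, which enclosed a p300 region whose centre was outside 5hmC. The next 5fC regions had scores of 516, at 117687063 to 117688685 on chromosome 4, and 510, at 59077830 to 59078505 on chromosome 2. Their p300 regions had scores of 132 and 110, and both centres lay in 5hmC.

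Tdg -/- cells showed the same order over p300 scores at a higher level. Of their 43345 p300 centres, 30.6% (30.1 to 31.0) lay in their own 5fC, with 29.8% of bases within 250 bp, 13.6% in the flank and a ratio of 2.20, against 1.69 in fl/fl cells. Leaving out chromosome 11 kept 41198 of the 43345 Tdg -/- and 29432 of the 32160 fl/fl p300 regions, and the ratios were 2.24 and 1.67. By score class the ratio went from 2.72 to 1.53. The order over width was less alike, with 27.6%, 34.5%, 33.6% and 26.7% of centres in 5fC from the narrowest to the widest class. The ratio was 2.57 in the narrowest and 1.53 in the widest of these. At the fl/fl p300 regions, Tdg -/- 5fC covered 36.5% of bases within 250 bp in the lowest and 21.4% in the highest score class, with flanks of 14.2% and 15.5%. Tdg -/- 5fC thus stayed above its flank in the highest class, where fl/fl 5fC, over all regions of the class, did not. Of the 2631 fl/fl p300 centres in fl/fl 5fC, 96.4% also lay in Tdg -/- 5fC, and of the other 29529 centres 23.7% (23.2 to 24.2) did, against 29.6% over all fl/fl p300 centres. The share of the whole fl/fl 5fC list in Tdg -/- 5fC was not computed, so the 96.4% cannot be read as particular to p300. The 5fC lists cover 34.6 Mb in fl/fl and 111 Mb in Tdg -/- cells with lowest scores of 60.9 and 50. Both values move with the levels, and the difference between the genotypes was not tested.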

How the data were processed

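The members, classes and measures were chosen with earlier results of these data known. Each mark and genotype had 1 list of regions, pooled over its libraries per the labels. The deposited score is a p-value as minus 10 log10, per the file headers of the 5fC and 5hmC lists, and the p300 lists, which have no header, were read likewise. The submitters' processing notes list MACS 1.4, Bowtie 0.17.2, TopHat 1.4.1, Cufflinks 1.3.0 and the mm9 build. The deposited FPKM values, pooled over libraries, served only to check the cell type and to read the RNA of the pathway's enzymes, Ep300 and Crebbp. Sources used here do not give the call threshold or the depth. Per the labels' protocols, 5fC libraries were made from fragments of about 200 to 350 bp with 18 cycles of amplification.

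The centre is the middle between start and end, and positions are printed as deposited, without knowing whether they count from 0 or 1. Coverage was taken in bins of 250 bp to 5 kb, with 4 to 5 kb as the flank, in Python 3.11.15 with NumPy 2.4.6, pandas 2.3.3 and SciPy 1.17.1, and the counting was checked on simulated regions. Score classes were planned only to compare widths within them, and their own comparison was added after seeing the data. Named regions are the 4 p300 regions of highest score with the centre in 5fC, the 4 of highest score without 5fC within 5 kb, the 3 under the strongest 5fC, the 2 widest, and the 2 clusters with most p300 regions, with 1 more for a tie. The alternatives tried were other score cuts, merging, overlap rules, windows and stitching gaps. Other lists of the series were not used. No genome of the files' build was used, so regions are given by position only.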

Additional observations from a re-analysis of the deposited data

How the results depend on the processing

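Of 62 recomputed values, 31 moved by less than counting error, 29 moved by more and 2 changed direction. Both changes of direction are the widest minus the narrowest regions, 2.85 points when any shared base counts, and clustered minus isolated regions, -0.267 points with a stitching gap of 5 kb. With the higher-scoring p300 regions alone, the share of centres in 5fC was 5.49% and the share within 5 kb 44.8%. Their ratio of centre to flank was 1.12. Width classes and clusters were rebuilt among these regions, so one counted as isolated can have a lower-scoring neighbour. On the rebuilt classes the ratio for isolated regions was 1.38, the width difference -2.64 points and the clustering difference 0.646. Regions isolated in the full list had ratios of 1.76 in the third and 1.37 in the highest score class. With the higher-scoring 5fC regions alone, these shares were 5.23% at the centre, 2.79% in the flank and 29.4% within 5 kb, the width difference -1.88 and the difference between score classes -5.10 points. After merging regions closer than 1 kb, 8.49% of centres and 4.89% of flank bases lay in 5fC, 45.6% of regions had 5fC within 5 kb and the clustering difference was 2.90. Any shared base gave 12.9% and a clustering difference of 3.52. A gap of 25 kb gave 2.72 and classes of width 2.62 points. Isolated regions gave a width difference of -3.52 and a score difference of -5.79, classes of score a width difference of -1.33, and centres outside 5hmC a score difference of -0.796 points. The ratio of centre to flank was 1.43 with a centre of 500 bp each side, 1.80 with 5fC regions set to 500 bp (centre share 7.10%) and 1.54 per base of 5hmC. Without chromosomes 11 and X in turn, 47.0% and 46.9% lay within 5 kb. Alternatives on the score difference, on 500 bp 5fC regions and per base of 5hmC were chosen after seeing the data. The cause of each change was not tested. Leaving out single libraries was not possible in pooled lists. No paired analysis was possible because each mark has 1 pooled list. Depth, unknown here, limits which weak regions could be called.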
